A study of Mus musculus with 10 samples.

Results

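Accessible chromatin was described around 8 forkhead genes that are known from cardiac and other mesenchyme, Foxc1, Foxc2, Foxf1, Foxd1, Foxp1, Foxp2, Foxo1 and Foxo3, out of 21938 protein-coding genes. Their peaks were taken by position alone: every ATAC-seq peak whose summit lay inside one of these genes or within 50 kb of it on mm10. Over the 9 peak lists, 1490 of 1071660 summits met this rule, and they fell into 270 of 184764 regions of 501 bp, each centred on a summit. The lists came from 3 groups of tdTomato+ cells sorted from Rosa26tdTomato;Wt1CreERT2/+ embryonic hearts on a C57BL/6J background. E11.5 epicardium and E17.5 epicardium (CD31-tdTomato+PDPN+) had 3 biological replicates each. Epicardium-derived cells (EPDCs, CD31-tdTomato+PDPN-) had 1 sample of E12.5 and 2 of E13.5, and the technical replicates of the E13.5 sample 2 shared a single list. All groups had received tamoxifen at an earlier embryonic stage, and all carried the same Cre allele. In this model the Wt1 promoter drives the Cre, so tdTomato marks cells that expressed Wt1 at induction and their descendants, whatever they had become, and no group without the Cre allele was compared. Each sample was a pool of littermate hearts, 6 for E11.5, 4 for E17.5 and 4 to 13 for E13.5 per the labels, so that single embryos were not resolved, and 40000 to 50000 cells were sorted. The methods of the study state other ranges for the E13.5 hearts and for the cells.

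Forkhead proteins bind DNA through a winged-helix domain, and some of them can engage sites within compacted chromatin. In mesenchyme, Foxc1, Foxc2, Foxf1 and Foxd1 act in the development of heart, vessel, lung and kidney stroma. Foxp1 and Foxp2 are mainly repressors with roles in the heart, lung and brain, and Foxo1 and Foxo3 are held in the cytoplasm by insulin and growth factor signalling through AKT. The epicardium is the mesothelial cover of the heart, and EPDCs are the mesenchymal cells that leave it by epithelial-to-mesenchymal transition and give rise to fibroblasts and mural cells.

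The level of a region in a library was its rank percentile, which is the position of its strongest summit among all summits of that library ordered by the −log10 p of the peak caller. A value of 100 is the strongest summit and 0 means that no summit was called, which does not show that the site was closed. Groups were called different where every library of one lay above every library of the other. The libraries had 94909 to 142743 summits and a genome background of 2.07 to 10.9 fragments per position, lowest in E17.5 replicate 1 and highest in E13.5 EPDC sample 2. Depth thus differed between libraries of the same group, and its part in single calls was not tested. Only the EPDC lists held summits outside the main chromosomes, so that handling and cell population cannot be told apart. Promoters of epicardial markers averaged a percentile of 75.6 to 80.5 in the E11.5 libraries, 88.9 to 92.5 in the E17.5 libraries and 58.4 to 67.9 in the EPDC libraries, and those of mesenchymal markers 63.9 to 69.1, 73.3 to 77.0 and 73.8 to 82.9. These means hid unlike members. Of the 10 epicardial markers, Wt1 (97.0 and 91.4), Upk3b and Upk1b were lower at E17.5 than at E11.5, whereas Msln (0 and 81.6), Krt8 (46.2 and 84.1), Krt18 (61.3 and 86.1) and Aldh1a2 were higher and the other 3 overlapped. In EPDCs, Wt1 (mean 95.6), Tbx18 (96.4), Tcf21 (92.2) and Krt18 (48.4) overlapped E11.5 epicardium, and Msln was at 0 in both. Upk3b (47.5), Upk1b (75.6), Krt8 (1.96), Aldh1a2 (87.9) and Krt19 (85.4) were lower in EPDCs than at E11.5. Of the 8 mesenchymal markers, Dcn was lower in EPDCs than at E11.5, Postn (0 and 77.5) and Col3a1 were higher, and the other 5 overlapped. Endothelial marker promoters averaged 28.5 to 29.2 in epicardium and 28.8 to 35.7 in EPDCs, with Kdr at 88.1 to 93.2 and Tek at 78.9 to 85.8, Cdh5, Tie1 and Emcn at 0 in every library and Pecam1 called only in the E13.5 EPDC samples, at 25.5 and 36.7. Mural marker promoters averaged 83.99 to 86.8 at E11.5, 62.0 to 75.3 at E17.5 and 85.1 to 88.8 in EPDCs, those of cardiomyocytes 49.7 to 53.9, 40.7 to 50.3 and 40.5 to 46.5, and those of blood cells 25.9 to 28.3, 28.5 to 31.3 and 20.9 to 30.5. Ptprc, Spi1, Hbb-bt and Myh6 among them were at 0 throughout. The part of these other cell types in the results was not tested.

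The promoters of all 8 genes carried a peak in all 9 libraries, as did those of 14009 of the 21938 protein-coding genes (63.9%). A promoter here is the strongest summit within 1 kb of any start site of a protein-coding transcript. Foxc1 had the highest mean percentile over the 9 libraries, 95.9, above 74.3% of the 15941 genes with a promoter peak in any library. Foxo1 (90.3), Foxo3 (89.4), Foxd1 (89.2), Foxp1 (87.4), Foxf1 (84.7), Foxp2 (80.3) and Foxc2 (79.4) followed, all below the median gene at 90.5. The lowest Foxc1 value lay above the highest of Foxo1, and the ranges of every other pair of neighbours in this order overlapped. Within libraries, Foxf1 also ranked above Foxp2 in all 9.

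Among the 8 promoters, Foxd1, a stromal progenitor gene, was the one that separated EPDCs from all epicardium. It ranked at 90.6, 90.4 and 90.8 in the 3 E11.5 libraries, at 87.2, 84.1 and 83.8 in the E17.5 libraries and at 91.4, 92.1 and 92.7 in the E12.5 sample and the E13.5 samples 1 and 2 of EPDCs. The 3 groups did not overlap, with E17.5 epicardium lowest and EPDCs highest. The libraries keep this order wherever 3 values are listed. In bulk samples, fewer cells with an open site and less opening in each cell cannot be told apart. EPDCs lay 4.2 points above the 6 epicardial libraries, at 92.0 ± 0.63 (SD, n = 3) against 87.8 ± 3.27 (SD, n = 6), with a two-sided exact permutation p of 0.0595 and an adjusted p of 0.216 over all genes. From E11.5 to E17.5 epicardium the difference was -5.6 points, and the exact permutation p was 0.10, the smallest that 3 against 3 libraries can give. Over all genes with a promoter peak, 6.65% of promoters were higher and 9.80% lower in EPDCs than in all epicardium, and 10.8% were higher and 25.6% lower at E17.5 than at E11.5. The median promoter differed by -0.39 points between EPDCs and all epicardium and by -0.45 points between the stages. Ranking peaks by fold enrichment ended both Foxd1 calls, with differences of 1.39 and -1.19 points, and equal numbers of top peaks, as many from each library as in the shortest list, ended the stage call (-4.31 points).

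Foxc1 and Foxo3 had higher promoter percentiles in E17.5 than in E11.5 epicardium. Foxc1, which acts with Foxc2 in the development of the outflow tract and coronary vessels, ranked at 96.0, 93.2 and 96.1 at E11.5, 96.4, 96.5 and 96.6 at E17.5, and 97.1, 94.3 and 96.9 in EPDCs. The difference between the stages was 1.4 points, and the EPDC values overlapped both stages. This stage difference was 0.48 points without E11.5 replicate 2, the lowest library, though leaving out a library cannot end a call. It was 2.97 points with equal numbers of top peaks and 6.55 by fold enrichment, each without overlap. Foxo3, a factor of stress resistance and quiescence, ranked at 85.7, 90.0 and 88.7 at E11.5, 91.5, 93.8 and 90.2 at E17.5, and 87.1, 86.5 and 90.8 in EPDCs. Its stage difference was 3.7 points, and EPDCs overlapped both stages. It was 7.20 points with equal numbers of top peaks and 11.7 by fold enrichment. When summits up to 2 kb from a start site were admitted, the Foxo3 difference was -0.23 points and the groups overlapped, because a stronger summit 1.2 kb upstream then stood for the promoter.

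The other 5 promoters overlapped between the groups in both comparisons. Foxf1, the lung and splanchnic mesenchyme factor, ranked at 79.6, 84.8 and 85.7 at E11.5, 76.4, 87.3 and 87.6 at E17.5, and 87.1, 82.6 and 91.5 in EPDCs. Its neighbour Foxc2 ranked at 76.0, 78.1 and 76.1 at E11.5, 77.7, 83.7 and 84.6 at E17.5, and 73.5, 80.0 and 85.1 in EPDCs. E17.5 replicate 1, the library of lowest depth, was the lowest of its group for both genes. Foxp1 ranked at 87.2, 89.0 and 84.1 at E11.5, 86.6, 87.6 and 85.7 at E17.5, and 86.4, 88.2 and 92.2 in EPDCs. Its paralogue Foxp2 ranked at 78.7, 84.5 and 75.1 at E11.5, 75.5, 81.8 and 84.7 at E17.5, and 75.0, 81.6 and 85.6 in EPDCs. E13.5 EPDC sample 2, the library of greatest depth, was the highest of all 9 for both Foxp genes and for Foxf1 and Foxc2. The Foxo1 promoter ranked at 90.2, 91.7 and 90.7 at E11.5, 89.9, 92.3 and 89.5 at E17.5, and 87.9, 89.0 and 92.0 in EPDCs. Its stage difference of -0.29 points became 2.00 with equal numbers of top peaks. That of Foxp1, -0.18 points, became 8.63 by fold enrichment, and the stages did not overlap in either case.

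**Figure D1:**
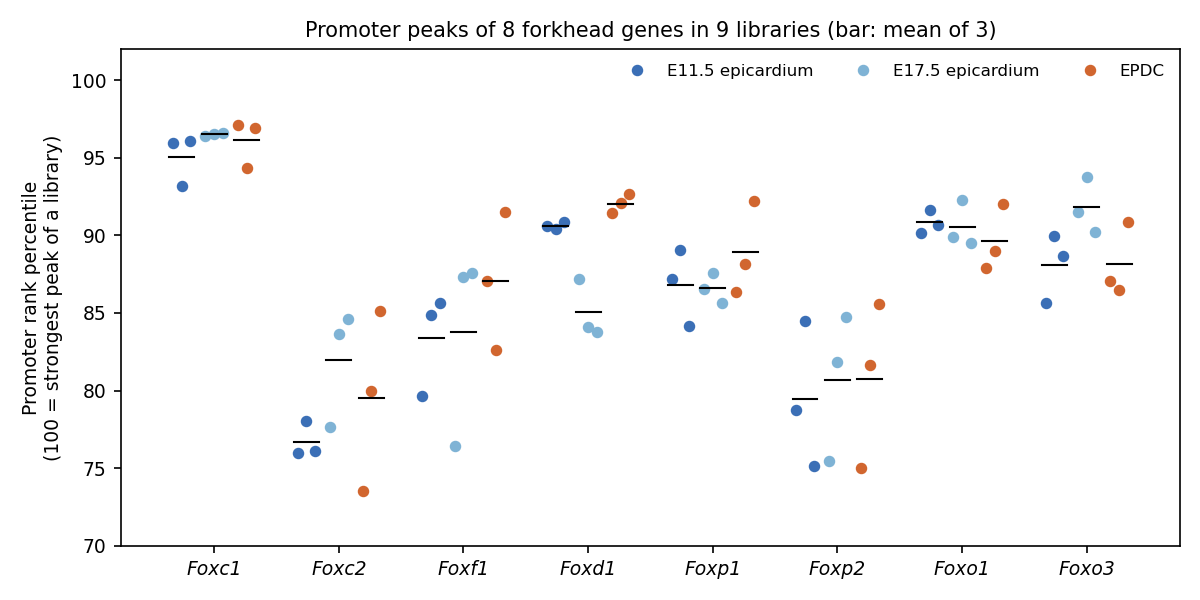
Promoter rank percentile (y axis, 100 is the strongest summit of a library) of the 8 forkhead genes (x axis), with 1 point for each of the 9 libraries, coloured by group, and a bar at the mean of 3. Foxd1 shows 3 groups that do not overlap, with E17.5 epicardium at 83.8 to 87.2 and EPDCs at 91.4 to 92.7.

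The number of summits around a gene was compared next. Counts were expressed per 100000 summits of the library, since libraries differed in their totals, and the window of Foxp1 was 697 kb long against 103 kb for Foxc2. EPDCs had more summits than every epicardial library around Foxc1, Foxc2 and Foxf1. The counts per 100000 summits for Foxc1 were 10.1, 8.4 and 8.7 at E11.5, 7.4, 8.6 and 5.6 at E17.5, and 12.7, 13.0 and 13.7 in EPDCs. The EPDC mean of 13.1 ± 0.47 (SD, n = 3) exceeded the epicardial mean of 8.1 ± 1.51 (SD, n = 6) by 5.0. Foxf1 had 12.6, 11.2 and 10.2 at E11.5, 10.5, 10.2 and 11.2 at E17.5, and 17.6, 13.9 and 15.9 in EPDCs. Foxc2 had 15.1, 13.3 and 13.8 at E11.5, 14.8, 13.3 and 14.0 at E17.5, and 19.6, 16.7 and 18.2 in EPDCs. These last 2 genes start 31.8 kb apart on chromosome 8 and share 20 regions, so they are not separate observations. In each of the 3 genes the exact permutation p was 0.0119, the smallest possible for 3 against 6 libraries, and the adjusted p over all genes was 0.113. Around all genes, 6.58% of windows had more and 9.17% fewer summits in EPDCs than in all epicardium, and the median window differed by -0.44. The Foxc1 groups overlapped with equal numbers of top peaks (a difference of 1.58). They also overlapped with a stricter threshold of 5 on the −log10 q (3.21), with each interval taken once (2.10) and with 100 kb on each side (3.91). The Foxf1 difference moved from 4.87 to 1.66 with 25 kb on each side. That of Foxc2 moved from 4.15 to 8.81 with 100 kb, and neither overlapped in these settings.

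Foxp1, a repressor needed for ventricular and outflow tract growth, had fewer summits at E17.5. Its window held 51.1, 54.6 and 50.8 summits per 100000 in the E11.5 libraries, 35.8, 39.1 and 39.1 in the E17.5 libraries and 48.0, 59.5 and 66.0 in EPDCs. Every E17.5 library lay below every other library. The mean difference between the stages was -14.2 (exact permutation p = 0.10), while 15.0% of all windows had fewer and 30.9% more summits at E17.5 than at E11.5, with a median difference of 0.65. With such equal numbers of top peaks the difference was -4.57 and the stages overlapped. Foxo1, a target of AKT that restrains cell growth, went the other way, with 11.7, 13.3 and 11.6 at E11.5, 14.8, 14.9 and 15.8 at E17.5, and 12.7, 12.1 and 22.0 in EPDCs. The difference between the stages was 2.9, without overlap. It was 1.69 with each interval taken once and 4.57 with equal numbers of top peaks, each without overlap. The highest EPDC value belonged to the sample of greatest depth. Foxd1 had 6.7, 7.0 and 9.4 at E11.5, 6.3, 11.7 and 9.3 at E17.5, and 12.7, 10.2 and 9.9 in EPDCs. Foxp2 had 14.2, 16.1 and 17.4 at E11.5, 14.8, 14.9 and 14.9 at E17.5, and 13.7, 20.5 and 19.0 in EPDCs, and Foxo3 had 23.5, 23.8 and 22.5 at E11.5, 22.1, 28.1 and 26.1 at E17.5, and 24.5, 24.2 and 22.0 in EPDCs. These 3 genes overlapped between the groups in both comparisons.

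**Figure D2:**
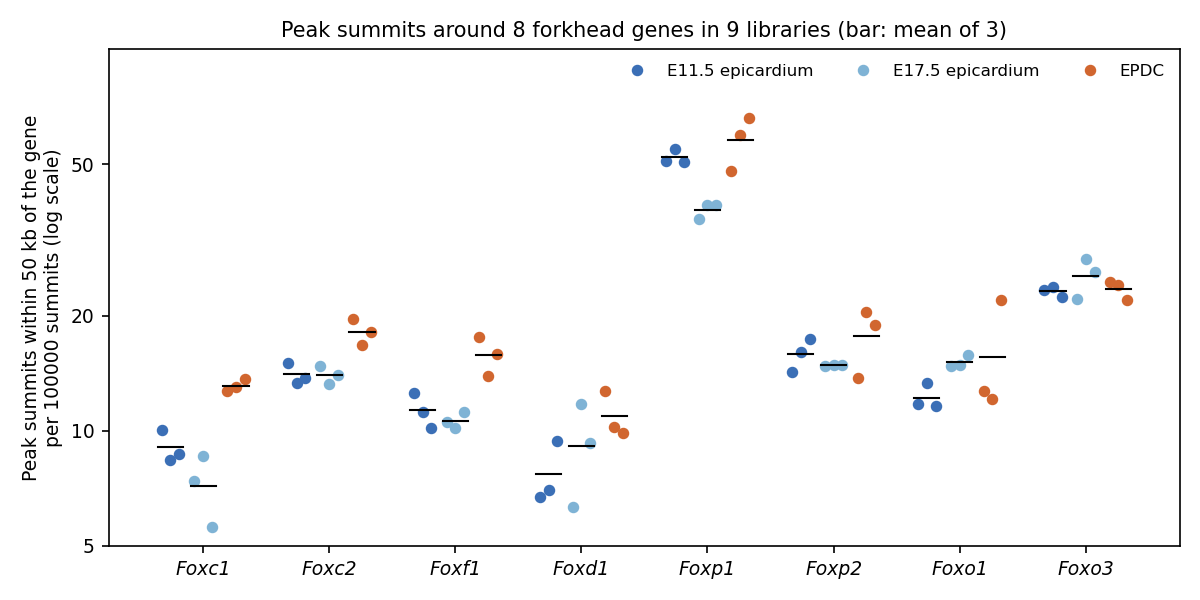
Summits inside or within 50 kb of each gene per 100000 summits of a library (y axis, log scale), with 1 point for each library and a bar at the mean of 3. The E17.5 points of Foxp1 lie between 35.8 and 39.1, below all other libraries, and the EPDC points of Foxc1, Foxc2 and Foxf1 lie above all epicardial ones.

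Of the 270 regions, 111 lay in the window of Foxp1, 41 of Foxo3, 33 of Foxo1, 31 of Foxp2, 24 of Foxc2, 21 of Foxf1, 16 of Foxc1 and 13 of Foxd1, with 20 counted for both Foxf1 and Foxc2. Their summits were in an annotated intron in 189 cases, in an exon in 31 and between genes in 50. Among them, 31 lay within 1 kb of a start site of a member and 4 within 1 kb of that of another gene, namely Btf3, Mthfsd and, for 2 of them, Foxl1. A peak was called in all 9 libraries in 57 regions (21.1%, against 24.7% of all regions) and in a single library in 62 (23.0%, against 16.6%). The deepest library, E13.5 EPDC sample 2, accounted for 26 of these 62 (9.63% of member regions, against 4.85% of all regions).

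Between the stages, 28 member regions (10.4%) were higher and 62 (23.0%) lower in E17.5 than in E11.5 epicardium, beside 11.0% and 27.4% of all regions, so neither share was above the background. With equal numbers of top peaks from each library the counts were 39 higher and 29 lower, beside 26503 and 30643 over all regions, so that lower regions no longer outnumbered higher ones among the members. Without E17.5 replicate 1, 44 member regions (16.3%) were higher, beside 16.7% of all regions. No region in the genome reached an adjusted p below 0.261 in this comparison, and every called region had the exact permutation p of 0.10. Foxo3 had 8 higher and 10 lower regions, Foxo1 6 and 6, Foxp1 9 and 28, Foxp2 0 and 6, Foxc1 2 and 4, Foxc2 2 and 5, Foxf1 1 and 4 and Foxd1 1 and 3. In 26 regions a peak was called in all E11.5 and no E17.5 libraries (9.63%, against 10.4% of all regions), 16 of them around Foxp1, and in 8 regions the reverse held (2.96%, against 4.39%).

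Against all epicardium, 37 member regions (13.7%) were higher and 13 (4.81%) lower in EPDCs, beside 9.36% and 8.09% of all regions. Equal numbers of top peaks gave 44 and 8, beside 11.1% and 7.06% of all regions. Without the E12.5 sample 68 regions were higher and 14 lower, beside 16.9% and 8.84% of all regions, and without the deepest EPDC sample 38 were higher and 23 lower, beside 9.64% and 11.8%. The smallest adjusted p of any region in the genome was 0.0864, with an exact permutation p of 0.0119, and every called region named below had these values. EPDCs had 14 higher and 5 lower regions around Foxp1, 6 and 5 around Foxo3, 6 and 1 around Foxp2, 3 and 1 around Foxd1, 3 and 1 around Foxo1, 3 and 0 around Foxc2, 2 and 0 around Foxf1 and 2 and 0 around Foxc1. Set against single stages, EPDCs were higher in 42 regions (15.6%, background 10.8%) and lower in 37 (13.7%, background 24.6%) than E11.5 epicardium. They were higher in 65 (24.1%, background 19.3%) and lower in 28 (10.4%, background 16.0%) than E17.5 epicardium. Without the E12.5 sample, the higher counts were 75 (27.8%, background 19.1%) against E11.5 and 98 (36.3%, background 28.2%) against E17.5 epicardium. The count lower than E11.5 epicardium was 57 (21.1%, background 31.4%) without E13.5 sample 2. It was 21 (7.78%, background 16.2%) with equal numbers of top peaks. These 3 comparisons share the EPDC libraries. In all of the EPDC and none of the epicardial libraries, 10 regions were called (3.70%, against 3.23% of all regions), and in all epicardial and no EPDC libraries 4 were (1.48%, against 2.12%). Both E13.5 samples and no other library called 17 regions (6.30%, against 3.46%), of which 9 lay around Foxp1 and 4 around Foxp2, and a single E12.5 sample gave no measure of its spread.

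**Figure D3:**
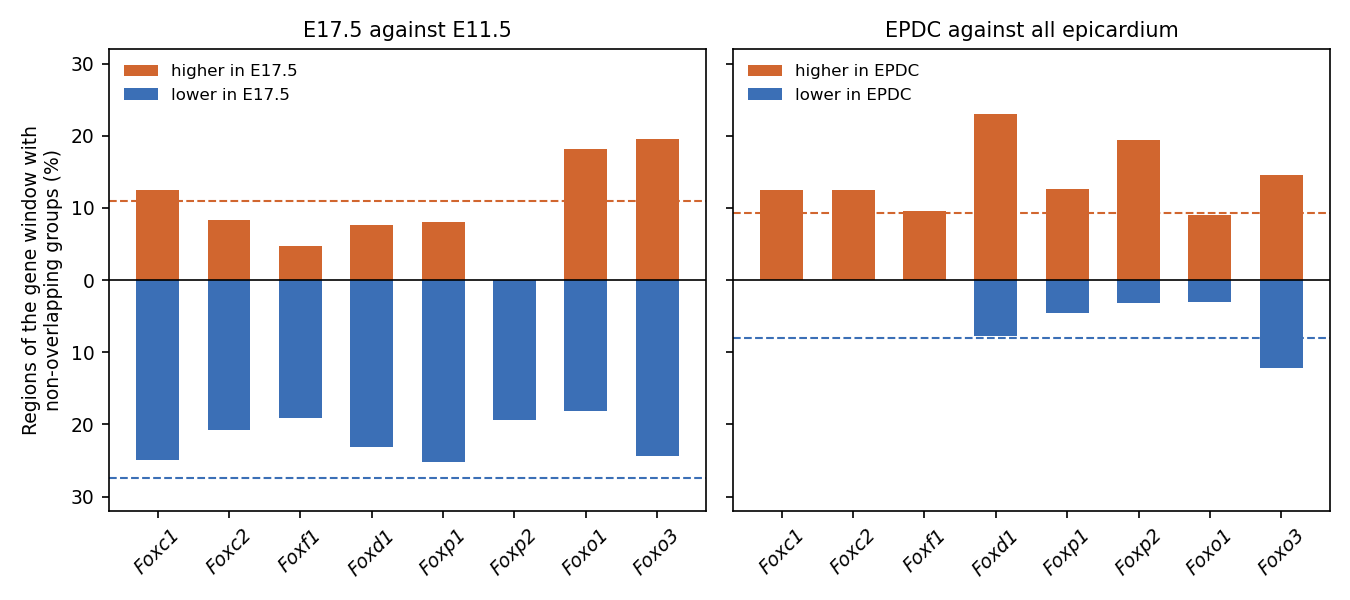
Percent of the regions of each gene window in which all libraries of a group lay above (bars up) or below (bars down) all libraries of the other, for E17.5 against E11.5 epicardium and for EPDCs against all epicardium. Dashed lines mark the same percent over all 184764 regions, which for EPDCs were 9.36% higher and 8.09% lower.

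Foxd1 lies at chr13:98354242-98359305 on the plus strand of mm10. The region with the largest difference between EPDCs and epicardium around it lay between genes, 30.0 kb downstream of its start (chr13:98384031-98384531). It ranked at 0, 15.0 and 0 in E11.5 epicardium, 45.7, 37.3 and 42.9 in E17.5 epicardium and 82.2, 90.7 and 92.1 in EPDCs. The groups formed 3 steps without overlap, with a difference of 64.8 points between EPDCs and all epicardium and 37.0 points between the stages. The summit held 23, 28 and 30 fragments in the E17.5 libraries and 91, 195 and 447 in the EPDC samples. Foxd1 itself had a second summit 0.8 kb into the gene (chr13:98354759-98355259) with EPDCs lowest, at 43.9, 43.2 and 35.4 at E11.5, 26.6, 32.6 and 23.0 at E17.5, and 16.9, 20.2 and 0 in EPDCs. A further summit 1.5 kb into the gene went the other way, at 20.5, 0 and 18.3 at E11.5, 0, 11.0 and 27.8 at E17.5, and 38.6, 49.9 and 67.8 in EPDCs, a difference of 39.2 points from all epicardium. Both were chosen after their values were seen. The highest mean in this window belonged to the start of Btf3, 37.2 kb upstream of Foxd1 (chr13:98316768-98317268), at 84.6 to 93.4 in all libraries. The sequence of the distal Foxd1 region is given for 100 bp on each side of its summit, as the RefSeq plus strand of mm10, and here and below capitals mark exact matches to the 6 motifs searched, of which this stretch held none.
Foxd1 +30.0 kb (chr13:98384181-98384381): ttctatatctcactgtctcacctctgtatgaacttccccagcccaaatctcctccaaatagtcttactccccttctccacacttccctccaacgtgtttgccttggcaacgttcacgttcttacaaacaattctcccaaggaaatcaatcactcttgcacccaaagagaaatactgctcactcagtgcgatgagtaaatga

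Foxc1 (chr13:31806633-31812476, plus strand) had its strongest region at the promoter (chr13:31806313-31806813), at 93.2 to 97.1 in all libraries, and its largest differences further away. A region 9.0 kb downstream of its start, between genes (chr13:31815369-31815869), was at 0 in all 6 epicardial libraries and at 29.8, 42.3 and 45.8 in EPDCs, with 34, 54 and 125 fragments at the summit. It was the largest called difference of this window between EPDCs and epicardium, 39.3 points. Another region, 43.4 kb downstream in an intron of Gmds (chr13:31849811-31850311), ranked at 69.3, 73.6 and 64.0 at E11.5, 18.5, 22.6 and 19.3 at E17.5 and 31.1, 0 and 16.9 in EPDCs. E11.5 epicardium stood above both other groups there, with a difference of -48.9 points from E11.5 to E17.5. The summit of this second region lay 49 bp before an AP-1 motif (TGACTCA), and none of the 6 motifs occurred within 100 bp of the first.
Foxc1 +9.0 kb (chr13:31815519-31815719): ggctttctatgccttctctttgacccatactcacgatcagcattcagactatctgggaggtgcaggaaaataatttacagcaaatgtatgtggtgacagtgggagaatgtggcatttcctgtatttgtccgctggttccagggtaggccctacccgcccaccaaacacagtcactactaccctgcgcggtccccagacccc
Foxc1 +43.4 kb (chr13:31849961-31850161): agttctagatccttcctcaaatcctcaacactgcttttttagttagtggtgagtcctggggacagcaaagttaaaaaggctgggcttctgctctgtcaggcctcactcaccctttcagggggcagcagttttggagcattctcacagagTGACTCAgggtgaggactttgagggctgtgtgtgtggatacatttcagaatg

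Foxf1 (chr8:121084386-121088144) and Foxc2 (chr8:121116171-121118895) lie on the plus strand beside each other. In their shared window the strongest region was neither promoter but a site 9.5 kb downstream of the Foxc2 start and 2.28 kb from the start of Foxl1 (chr8:121125411-121125911), at 89.2 to 95.8 in all libraries. The annotation places it, and the sites around it, in an intron of Gm20388, a long gene model that spans the locus. A region 12.7 kb upstream of Foxf1, in an intron of the long noncoding RNA gene Fendrr (chr8:121071395-121071895), ranked at 81.0, 81.4 and 71.7 at E11.5, 12.3, 25.6 and 9.5 at E17.5 and 42.8, 35.9 and 56.7 in EPDCs. The 3 groups did not overlap, with EPDCs between the stages. A region 36.5 kb downstream of Foxc2 (chr8:121152401-121152901) was ordered differently, with 0 in all 3 E11.5 libraries, 14.7, 12.4 and 8.4 at E17.5 and 68.6, 75.3 and 75.6 in EPDCs. Its EPDC libraries stood 67.3 points above epicardium, and its E17.5 summits held only 13, 17 and 15 fragments. The call between the stages was lost with the stricter threshold and with equal numbers of top peaks. At 8.9 kb downstream of Foxc2 (chr8:121124809-121125309) another region was at 2.9, 26.9 and 32.2 at E11.5, 0 in all 3 E17.5 libraries and 36.4, 51.2 and 52.8 in EPDCs, 2.88 kb from Foxl1. The call against epicardium was lost when overlap of whole intervals stood for summits, and that between the stages with the stricter threshold and with equal numbers of top peaks. The Fendrr region carries an E-box (CAGCTG), and the Foxc2 region none of the 6 motifs.
Foxf1 -12.7 kb (chr8:121071545-121071745): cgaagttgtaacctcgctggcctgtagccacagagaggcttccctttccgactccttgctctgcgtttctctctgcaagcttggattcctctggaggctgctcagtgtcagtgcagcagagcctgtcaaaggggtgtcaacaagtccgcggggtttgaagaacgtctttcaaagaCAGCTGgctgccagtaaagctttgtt
Foxc2 +36.5 kb (chr8:121152551-121152751): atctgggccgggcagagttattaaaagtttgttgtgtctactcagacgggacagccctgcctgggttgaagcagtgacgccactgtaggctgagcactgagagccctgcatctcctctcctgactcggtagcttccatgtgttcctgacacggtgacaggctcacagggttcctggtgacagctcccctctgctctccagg

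Foxp1 (chr6:98925338-99522721, minus strand) held the largest 3 differences between the stages among the member regions, all of them in its introns and all lower at E17.5. Its strongest region lay 37.4 kb downstream of the 5′ end (chr6:99485121-99485621), at 96.3 to 98.9 in all 9 libraries, well above its promoters. Further into the gene, a region 286.9 kb from the 5′ end (chr6:99235570-99236070) ranked at 75.0, 79.3 and 78.9 at E11.5, 0 in all 3 E17.5 libraries and 53.8, 48.0 and 59.7 in EPDCs. It held 62, 76 and 66 fragments in the E11.5 and 39, 38 and 97 in the EPDC libraries. A region at 415.5 kb (chr6:99106927-99107427) was at 77.0, 77.3 and 85.2 at E11.5, 0, 2.8 and 8.4 at E17.5, and 77.5, 77.5 and 87.0 in EPDCs, so that EPDCs overlapped E11.5 epicardium. A region at 328.9 kb (chr6:99193607-99194107) was at 67.0, 68.2 and 67.2 at E11.5, 0 in all 3 E17.5 libraries, and 23.9, 29.6 and 56.0 in EPDCs. All 3 were called in every E11.5 and every EPDC library and were absent from at least one E17.5 list, and in 12 of the 270 member regions (4.44%, against 3.49% of all regions) every E11.5 and EPDC library and no E17.5 library had a summit, 8 of them around Foxp1. The first 2 carry a GATA motif (AGATAAG), and the second also an E-box.
Foxp1 +286.9 kb (chr6:99235720-99235920): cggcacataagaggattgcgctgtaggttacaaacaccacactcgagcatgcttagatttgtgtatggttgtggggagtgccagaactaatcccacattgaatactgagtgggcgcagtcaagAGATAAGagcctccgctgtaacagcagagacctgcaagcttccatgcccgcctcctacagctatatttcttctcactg
Foxp1 +415.5 kb (chr6:99107077-99107277): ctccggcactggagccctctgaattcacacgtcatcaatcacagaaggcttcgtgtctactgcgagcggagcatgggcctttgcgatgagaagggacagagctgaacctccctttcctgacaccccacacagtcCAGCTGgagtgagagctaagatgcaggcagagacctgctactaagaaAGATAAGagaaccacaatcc

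Another Foxp1 region was higher in epicardium. This one, at 56.2 kb from the 5′ end (chr6:99466288-99466788), ranked at 68.2, 73.5 and 82.8 at E11.5, 83.6, 89.5 and 88.3 at E17.5 and 0, 0 and 33.7 in EPDCs. The deepest EPDC sample was the only EPDC library with a summit there, of 55 fragments, against 64 to 154 in the epicardial libraries. The difference of EPDCs from all epicardium was -69.8 points, the lowest among the member regions. A region 621.3 kb from the 5′ end, between genes beyond the 3′ end of Foxp1 (chr6:98901178-98901678), was at 37.4, 53.1 and 0 at E11.5, 72.0, 83.4 and 80.2 at E17.5 and 0 in all 3 EPDC libraries. The E17.5 values lay above those of both other groups, and EPDCs overlapped E11.5 epicardium, where 1 library was also at 0. With EPDCs highest, an intron region at 566.9 kb (chr6:98955579-98956079) was at 0, 0 and 16.0 at E11.5, 0, 7.3 and 0 at E17.5, and 57.9, 71.8 and 73.9 in EPDCs. A region near the 5′ end, at 10.7 kb (chr6:99511761-99512261), was chosen after its values were seen. It ranked at 49.2, 53.5 and 49.7 at E11.5, 5.8, 8.6 and 22.9 at E17.5, and 86.2, 92.4 and 92.1 in EPDCs, so that the 3 groups were ordered E17.5, E11.5 and EPDC without overlap. The first of these regions holds an E-box, an AP-1 motif and a TEAD motif (GGAATGT) within 100 bp of its summit.
Foxp1 +56.2 kb (chr6:99466438-99466638): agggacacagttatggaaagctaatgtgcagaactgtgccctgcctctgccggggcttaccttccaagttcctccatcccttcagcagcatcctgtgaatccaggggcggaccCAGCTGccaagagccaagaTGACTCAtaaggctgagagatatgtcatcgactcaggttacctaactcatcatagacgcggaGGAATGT

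**Figure D4:**
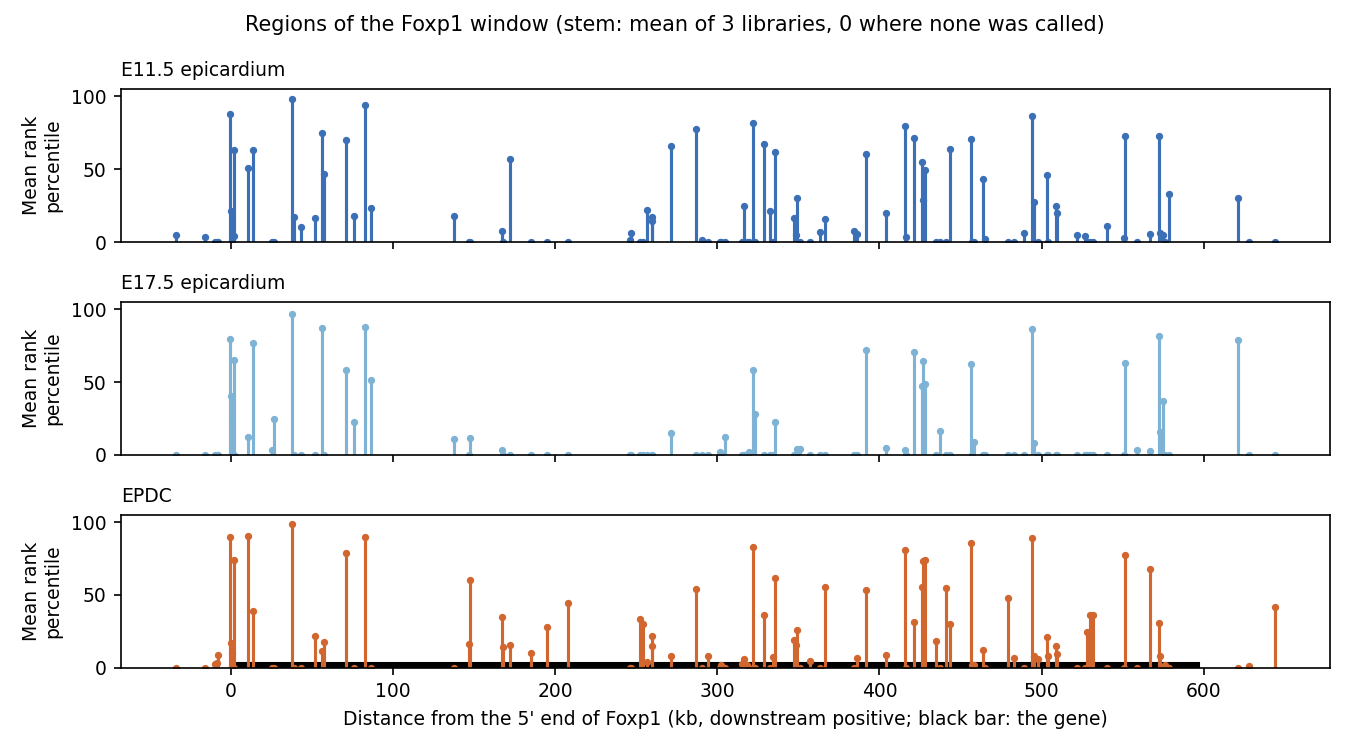
Mean rank percentile (y axis) of the 111 regions of the Foxp1 window against the distance of their summits from the 5′ end of the gene (x axis, kb), in 3 panels for the groups, with each stem the mean of 3 libraries. The region at 37.4 kb is tall in all panels, and those at 286.9 and 415.5 kb are tall in E11.5 epicardium and EPDCs and at or near 0 in E17.5 epicardium.

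Of the 31 regions of Foxp2 (chr6:14901349-15441977, plus strand), 0 were higher and 6 (19.4%) lower at E17.5 than at E11.5, beside 11.0% and 27.4% of all regions. The strongest Foxp2 region was in an intron 356.2 kb from the 5′ end (chr6:15257304-15257804) and ranked at 87.8, 87.4 and 81.5 at E11.5, 79.8, 81.2 and 83.7 at E17.5 and 93.7, 95.5 and 94.9 in EPDCs, with a higher mean than the Foxp2 promoter. EPDCs stood 11.2 points above epicardium, a call that was lost when peaks were ranked by fold enrichment. A region at 472.4 kb (chr6:15373545-15374045) was at 0 in all 6 epicardial libraries and at 60.7, 61.8 and 72.5 in EPDCs, with 46, 54 and 157 fragments. Its difference of 65.0 points was among the 4 largest in favour of EPDCs, with the distal regions of Foxc2 and Foxd1 and the Foxp1 region at 566.9 kb. A region at 128.3 kb (chr6:15029399-15029899) was at 30.4 to 57.0 in the E11.5 libraries, at 0 in the E17.5 libraries and at 0, 0 and 34.1 in EPDCs. The EPDC-restricted region carries an E-box 34 bp from its summit.
Foxp2 +472.4 kb (chr6:15373695-15373895): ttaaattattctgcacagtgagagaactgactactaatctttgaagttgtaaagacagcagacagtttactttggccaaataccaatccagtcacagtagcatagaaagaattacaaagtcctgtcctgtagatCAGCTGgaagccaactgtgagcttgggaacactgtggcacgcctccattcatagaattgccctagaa

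Around Foxo1 (chr3:52268336-52353221, plus strand), 6 of 33 regions (18.2%) were higher and 6 (18.2%) lower at E17.5 than at E11.5, beside 11.0% and 27.4% of all regions. In its intron, 75.1 kb from the start (chr3:52343199-52343699), a region was at 0 in all 3 E11.5 libraries, 51.0, 72.9 and 67.4 at E17.5 and 0 in all 3 EPDC libraries, so that it was called in E17.5 epicardium alone. Its 63.8 points were the largest difference in favour of E17.5 among the member regions. Beyond the 3′ end, at 108.9 kb (chr3:52376962-52377462), a region ranked at 0 in all 3 E11.5 libraries, 58.6, 71.0 and 59.5 at E17.5, and 0, 0 and 26.2 in EPDCs. Another, 14.2 kb upstream (chr3:52253918-52254418), ranked at 31.8, 24.5 and 0 at E11.5, 54.5, 74.8 and 68.1 at E17.5, and 0 in all 3 EPDC libraries. E17.5 epicardium was highest in all 3. The opposite pattern was seen 14.2 kb into the gene (chr3:52282336-52282836), in an exon of the unclassified transcript Gm38034, where the levels were 65.0, 76.4 and 75.4 at E11.5, 0, 15.0 and 0 at E17.5 and 69.2, 73.6 and 81.7 in EPDCs. A region 49.3 kb upstream, in an intron of the noncoding RNA Gm37202 (chr3:52218832-52219332), was at 53.4, 61.9 and 60.6 at E11.5, 51.9, 44.1 and 64.8 at E17.5, and 2.8, 0 and 26.2 in EPDCs, and so was lower in EPDCs. The E17.5 region in the intron holds a TEAD motif, and the region in Gm38034 a GATA motif.
Foxo1 +75.1 kb (chr3:52343349-52343549): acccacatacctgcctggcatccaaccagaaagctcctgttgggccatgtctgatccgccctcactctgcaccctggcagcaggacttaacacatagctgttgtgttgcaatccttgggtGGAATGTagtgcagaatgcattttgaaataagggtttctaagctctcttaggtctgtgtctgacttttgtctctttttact
Foxo1 +14.2 kb (chr3:52282486-52282686): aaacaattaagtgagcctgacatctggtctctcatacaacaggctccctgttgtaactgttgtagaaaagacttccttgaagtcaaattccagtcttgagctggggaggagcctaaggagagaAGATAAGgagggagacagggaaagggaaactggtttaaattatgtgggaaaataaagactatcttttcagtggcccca

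Around Foxo3 (chr10:42181841-42276755, minus strand), 5 of 41 regions (12.2%) were lower and 6 (14.6%) higher in EPDCs than in epicardium, beside 8.09% and 9.36% of all regions. Its strongest region, 1.2 kb upstream of the 5′ end (chr10:42277703-42278203), ranked at 93.7 to 97.0 in all libraries. A region between genes 141.2 kb downstream of the 5′ end (chr10:42135271-42135771) was at 78.3, 74.9 and 74.7 at E11.5, 45.7, 68.7 and 56.5 at E17.5 and 0.8, 0 and 0 in EPDCs. Its difference was -66.2 points, and it carries an AP-1 motif. In the gene, a region 18.2 kb from the 5′ end and within 1 kb of an internal start site (chr10:42258294-42258794) ranked at 48.4, 52.5 and 50.5 at E11.5, 65.0, 74.1 and 67.8 at E17.5, and 0, 0 and 4.2 in EPDCs. At 29.3 kb (chr10:42247164-42247664) the values were 46.5, 44.6 and 38.9 at E11.5, 52.8, 67.0 and 63.8 at E17.5, and 0 in all 3 EPDC libraries. In both of these the E17.5 libraries were highest and the EPDCs at or near 0. A last region, at 81.4 kb (chr10:42195056-42195556), was at 56.8, 70.7 and 51.3 at E11.5, 0 in all 3 E17.5 libraries and 50.9, 43.6 and 53.0 in EPDCs, and so resembled the stage-dependent regions of Foxp1.
Foxo3 +141.2 kb (chr10:42135421-42135621): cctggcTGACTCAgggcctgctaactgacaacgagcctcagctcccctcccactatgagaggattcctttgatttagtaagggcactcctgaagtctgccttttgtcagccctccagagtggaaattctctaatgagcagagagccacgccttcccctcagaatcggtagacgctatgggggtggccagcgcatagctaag

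The 6 motifs were searched as exact letters on either strand of the 501 bp regions, and no motif contains another. The letters of the AP-1, TEAD, GATA and E-box motifs are those given above, the forkhead motif was TGTTTAC and the T-box motif was AGGTGTGA. The forkhead motif occurred in 22 of the 270 member regions (8.15%), beside 6.75% of all regions. The AP-1 motif was found in 39 (14.4%, against 16.8%), the TEAD motif in 34 (12.6%, against 12.0%), the GATA motif in 28 (10.4%, against 10.5%), the E-box in 80 (29.6%, against 33.5%) and the T-box motif in 5 (1.85%, against 1.97%). AP-1 matches were in 10 of the 28 member regions higher at E17.5 (35.7%, against 27.2% of all such regions) and in 8 of the 62 lower ones (12.9%, against 14.2%). They were in 2 of the 37 member regions higher in EPDCs (5.41%, against 11.1%) and in 6 of the 13 lower ones (46.2%, against 30.0%). The AP-1 letters were thus more frequent, among member regions as among all regions, where E17.5 exceeded E11.5 epicardium and where epicardium exceeded EPDCs. The member counts were small, and no test was made. GATA was in 1 of the 28 member regions higher at E17.5 (3.57%, against 9.84%) and 10 of the 62 lower ones (16.1%, against 12.0%). It was in 3 of the 37 higher in EPDCs (8.11%, against 10.4%) and 4 of the 13 lower ones (30.8%, against 12.4%). TEAD was in 5 of these 28 (17.9%, against 12.2%) and 9 of these 62 (14.5%, against 14.1%). It was in 6 of these 37 (16.2%, against 11.1%) and 3 of these 13 (23.1%, against 16.2%). The E-box was in 7 of the 37 member regions higher in EPDCs (18.9%, against 43.0% of all such regions) and in 1 of the 13 lower ones (7.69%, against 32.7%). Between the stages it was in 8 of the 28 higher (28.6%, against 32.6%) and 16 of the 62 lower regions (25.8%, against 37.3%), so that its share among members lay below that of all regions in each of these 4 sets. The median GC content was 47.9% in member regions and 48.3% in all regions.

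Of the 36 other forkhead genes examined, 25 had a promoter peak in all 9 libraries, 6 in none (Foxh1, Foxi1, Foxn1, Foxq1, Foxr1 and Foxr2) and 5 in some (Foxb1, Foxd3, Foxd4, Foxi2 and Foxs1). The median of the 25 was 90.2. The promoter of 1 gene, Foxk2, was higher and those of 12 lower at E17.5 than at E11.5, and 2 were higher and 2 lower in EPDCs than in all epicardium, beside the shares of all genes given above. Foxs1 was called in every epicardial library, at 62.5, 67.6 and 73.1 in those of E11.5 and 57.8, 74.3 and 64.6 in those of E17.5, and in no EPDC library. Foxi2 was at 60.8, 60.4 and 54.8 at E11.5, at 0 in all 3 E17.5 libraries and at 13.1, 16.5 and 13.1 in EPDCs. Foxl1, beside Foxc2, was chosen for that position and ranked at 26.3, 37.2 and 21.3 at E11.5, 16.4, 23.9 and 34.6 at E17.5, and 14.6, 15.6 and 41.7 in EPDCs.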

How the data were processed

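Bulk ATAC-seq was made from 10 samples, which gave 9 peak lists, since both technical replicates of an E13.5 EPDC sample were merged before peak calling. According to the methods of the study, the authors aligned paired reads to mm10, removed mitochondrial, blacklisted, duplicate and multimapped reads, and called peaks and summits on each list with MACS2 2.2.9.1 (q 0.01). The deposited values are the fold enrichment over local background (a ratio) and the −log10 of the p-value and the q-value at each summit, none of them scaled between libraries. Fragments at a summit were recovered from these values.

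Summits on the autosomes, X and Y were ranked within each list by −log10 p. Windows of 501 bp centred on the summits of all lists were reduced to regions that do not overlap, keeping the summit of highest −log10 p relative to its list, and each region took the highest percentile of a summit inside it in each library. Groups were compared by complete separation and by two-sided exact permutation tests, with Benjamini-Hochberg adjustment over all regions, genes or windows. The smallest possible p was 0.10 for 3 against 3 lists and 0.0119 for 3 against 6. Replicates were separate pools of littermate hearts. Genes were taken from GENCODE M21 and sequences from the RefSeq copy of mm10.

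The member genes, the lists of markers, motifs and other forkhead genes, and the tests were chosen with earlier results of these data known. Regions were named by rule: the highest mean of each gene, the largest called difference of each gene, and the 4 largest in each direction, for E17.5 against E11.5 and for EPDCs against all epicardium. Other forkhead genes were named where the promoter was called in every library of one group and none of another. Alternatives were ranking by fold enrichment, equal numbers of top peaks, a depth-normalized score, a −log10 q of at least 5, whole intervals, other distances, each replicate left out and a replicate block. The scripts were tested on simulated data. Python 3.11.15, numpy 2.4.6, pandas 2.3.3, scipy 1.17.1 and matplotlib 3.10.9 were used.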

Additional observations from a re-analysis of the deposited data

How the results depend on the processing

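Of 32 calls on the named regions, 28 held under all 5 other measures of a region, and the 4 exceptions are given with their regions. Counts of called member regions moved by more than 1.5 times in some settings. With 100 kb on each side of a gene, 45 regions were higher at E17.5 than at E11.5, 59 and 46 were lower in EPDCs than in E11.5 and E17.5 epicardium, and 20 were lower in EPDCs than in all epicardium. These were 12.4%, 16.2%, 12.6% and 5.49% of 364 regions, against 10.4%, 13.7%, 10.4% and 4.81% of the 270. With equal numbers of top peaks, 29 regions were lower at E17.5, 21 were lower in EPDCs than in E11.5 epicardium and 8 were lower in EPDCs than in all epicardium, beside 16.6%, 16.2% and 7.06% of all regions. Calls rest on complete separation, so leaving out a library can add calls but cannot end them. Leaving out each library in turn gave 28 to 44 regions higher at E17.5, the most without E17.5 replicate 1, when 16.7% of all regions were higher. EPDCs were then higher than E11.5 epicardium in 43 to 75, higher than E17.5 epicardium in 65 to 98 and higher than all epicardium in 37 to 68 regions, the most without the E12.5 sample, when 19.1%, 28.2% and 16.9% of all regions were higher, against 10.8%, 19.3% and 9.36% with it. They were lower than E11.5 epicardium in 37 to 57 and lower than all epicardium in 13 to 23, the most without E13.5 sample 2, when 31.4% and 11.8% of all regions were lower.

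Called differences of single genes that were lost were those of the Foxd1 promoter between the stages by fold enrichment (-1.19 points) and with equal numbers of top peaks (-4.31), and against all epicardium by fold enrichment (1.39). The Foxp1 window lost its stage call with equal numbers of top peaks (-4.57). The Foxc1 window lost its EPDC call with equal numbers of top peaks (1.58), the stricter threshold (3.21), intervals (2.10) and 100 kb (3.91). Called differences with the opposite sign arose between the stages for the Foxp1 promoter by fold enrichment (8.63), the Foxo1 promoter with equal numbers of top peaks (2.00) and the Foxc2 window with 100 kb (2.19), none of which was called in the first place. For the Foxo3 promoter the sign turned with 2 kb (-0.23). The causes were not tested.

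With the replicate number as a replicate block, 34 regions (12.6%, against 13.3% of all regions) were higher and 69 (25.6%, against 31.6%) lower at E17.5 in all 3 pairs. No call could be lost in this way, since groups that do not overlap differ in the same direction in every pair. The Foxc2 promoter was then higher in all 3 pairs (5.27 points). Deviations of same-numbered samples from their group means correlated at 0.0158, 0.0789 and -0.0638, and those of differently numbered samples at -0.0873 to 0.0707. With means of 3 libraries, these values cannot decide whether the numbers pair the samples. Summits held a median of 35 to 94 fragments, and weak sites near the caller's threshold are the least certain. Calls that held but moved by over 1.5 times were also the Foxo1 window between the stages (1.69 with intervals once each, 4.57 with equal numbers of top peaks) and, in EPDCs, the Foxc2 window (8.81 with 100 kb) and the Foxf1 window (1.66 with 25 kb).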

Other observations

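Around the 36 other forkhead genes, 2 windows had more and 9 fewer summits in EPDCs than in all epicardium, beside 6.58% and 9.17% of all windows. At E17.5, 7 had more and 6 fewer than at E11.5, beside 30.9% and 15.0%. Among their promoters, those of Foxa2 and Foxn2 were higher in EPDCs than in all epicardium, by 9.33 and 4.08 points, and that of Foxj2 was lower, with a difference of -2.80 points. These 3 genes were named after their values were seen.

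Both E13.5 EPDC samples but no other library had a summit in 17 of the 270 member regions (6.30%, against 3.46% of all regions). These were 9 of 111 regions around Foxp1, 4 of 31 around Foxp2, 2 of 16 around Foxc1 and 2 of 33 around Foxo1. The E12.5 sample differed from them in stage, and its genome background of 4.19 fragments per position was near that of E13.5 sample 1 (4.26) and below that of E13.5 sample 2 (10.9). It also had fewer summits (102002, against 107557 and 131830) and fewer fragments at the median summit (41, against 49 and 94). The parts of stage and depth were not tested.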
